A study of Mus musculus with 39 samples.

Results

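The 9 libraries described here, of 39 in the study, are those labelled bulk tumour from mice that received an isotype antibody: 4 from the CZA+DAV132 arm and 5 from the CZA arm. They were chosen by these labels alone, out of 19 libraries labelled bulk tumour. The comparison asked how the transcripts in these libraries differed with DAV132 when no PD-1 blockade was given. The hosts were wild-type C57BL/6 mice bearing MCA-205 tumours, and all of them had received a faecal microbiota transplant (FMT) of human volunteer stool. The volunteers had been exposed for 6 days to CZA, a treatment the labels name only by this abbreviation, in both arms, and in 1 arm also to DAV132. Tumour cells were implanted 2 weeks after the transplant. At a tumour size of 25 to 35 mm2 the mice began a course of 4 intraperitoneal injections at intervals of 3 days, each of 250 µg of the isotype control (clone 2A3), and tumours were taken 2 days after the last one. The other 10 libraries labelled bulk tumour came from mice that received the same doses of anti-PD-1 (clone RMP1-14), and a repeat of the experiment with the same stool samples gave 20 libraries of sorted CD8+ T cells. There was no arm without CZA.

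DAV132 is an adsorbent released in the colon, where it takes up antibiotic residues before they reach the bacteria that live there. The gut community is known to influence how tumours respond to PD-1 blockade. MCA-205 is a fibrosarcoma line induced by a carcinogen, and it grows in C57BL/6 mice as a tumour that T cells, macrophages and other leukocytes enter. An isotype antibody has the constant part of the therapeutic antibody but does not bind its target, so this contrast holds the FMT arms next to each other without checkpoint blockade.

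Expression was given as TPM, transcript abundance as a share of each library, so sequencing depth is unknown and no counting interval can be given. The labels do not tie a library to a mouse, so each p-value measures how these libraries spread, and that spread may hold technical variation. The arms differed in the stool given, which was not replicated, and DAV132 cannot be told apart from any other difference between the stools. The libraries of the arms also carry separate runs of names, T022 to T028 and T983 to T991. In bulk RNA, fewer cells of a type and less RNA per cell cannot be told apart.

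The label was checked against cell type markers. The 14 T cell markers summed to between 7480 and 12400 TPM in the 9 libraries. The 22 fibroblast and fibrosarcoma markers summed to between 1320 and 3620 TPM, and outside T986 most of it came from S100a4 and Thy1, which T cells also express. The T cell sum was between 2.31 and 6.89 times the fibroblast sum. Cd8a was listed at between 206 and 408 TPM and Cd4, the marker of helper T cells, at between 0.116 and 6.58 TPM. Col1a1, the main fibrillar collagen of fibrosarcoma cells, was listed at between 4.73 and 30.3 TPM in 8 libraries and at 431 TPM in T986. By these markers the libraries were richer in transcripts of CD8 T cells than in those of fibrosarcoma cells, and what they were made from was not tested. The libraries are therefore called libraries labelled bulk tumour throughout.

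Of 13326 genes tested on the log2(TPM + 1) scale with limma, 15 rose with DAV132 at a Benjamini-Hochberg adjusted p under 0.05, which is 0.113% of the genes tested, and 0 fell. At an unadjusted p under 0.05 there were 1204 higher (9.03%) and 250 lower (1.88%). The median change over all genes tested was 0.21, and 63% of the genes were above 0, so each change below is read against that median. The spread used for these tests was shared by all 4 groups of libraries labelled bulk tumour. In a fit of the 9 isotype libraries alone, 0 genes passed in either direction (limma), with 646 higher at an unadjusted p under 0.05. The call of every gene named as having risen below therefore depends on the shared spread, while its log2 change is the same in both fits.

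The gene with the smallest p was Mpv17l2, an inner mitochondrial membrane protein that takes part in mitochondrial ribosome assembly (GRCm38 chromosome 8, 70758649 to 70760946). Its TPM was 54.1, 29.2, 42.4 and 22.9 in the CZA+DAV132 libraries T022, T024, T027 and T028. In the CZA libraries T983, T985, T986, T987 and T991 it was 3.73, 2.22, 2.18, 5.14 and 2.50. The lowest CZA+DAV132 library was well above the highest CZA library. The log2 change was 3.17 ± 0.44 (SE, n = 4 and 5; limma, adjusted p = 0.00653). Rgs8, a GTPase-activating protein that shortens G protein signalling, was next (chromosome 1, 153653025 to 153700323). It was listed at 20.6, 10.1, 9.68 and 3.92 TPM with DAV132, in the same order of libraries. The CZA libraries were listed at 0.525, 0.362, 0.0737, 0.102 and 0 TPM. All of the CZA values were under 1 TPM and the groups did not overlap. Rgs8 changed by 3.15 ± 0.46 (limma, adjusted p = 0.00659). Grhpr, which reduces glyoxylate and hydroxypyruvate (chromosome 4, 44981395 to 44990734), was listed at 8.77, 8.01, 32.1 and 5.13 TPM with DAV132. It was listed at 0.442, 0.704, 0, 0 and 0.658 TPM without it. T027 stood highest and the groups were again apart. Its log2 change was 3.13 ± 0.51 (limma, adjusted p = 0.0157). Mpv17l2, Rgs8 and Grhpr passed in each of the 9 fits that left out 1 isotype library, and among the 15 genes they were the only ones that did.

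The sequence just upstream of these genes is shown because they passed both the isotype contrast and the interaction given below. They also had a gene name other than a clone name, and a RefSeq window that could be checked against their transcripts. Whether their levels went together across libraries was not tested. Each window holds the 250 bases before the start in RefSeq (build GRCm38.p6), 5′ to 3′ on the gene's strand, at chr8:70760922-70761171 (minus strand), chr1:153652787-153653036 (plus strand) and chr4:44981144-44981393 (plus strand). Capitals mark matches to the motif CCAAT and to the GC box, GGGCGG. A match on the opposite strand appears as its reverse complement.
Mpv17l2: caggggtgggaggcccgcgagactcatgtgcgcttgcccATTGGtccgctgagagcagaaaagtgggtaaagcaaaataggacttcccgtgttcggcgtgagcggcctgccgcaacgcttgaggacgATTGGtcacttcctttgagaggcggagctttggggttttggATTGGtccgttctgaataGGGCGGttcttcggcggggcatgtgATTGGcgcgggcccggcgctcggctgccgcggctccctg
Rgs8: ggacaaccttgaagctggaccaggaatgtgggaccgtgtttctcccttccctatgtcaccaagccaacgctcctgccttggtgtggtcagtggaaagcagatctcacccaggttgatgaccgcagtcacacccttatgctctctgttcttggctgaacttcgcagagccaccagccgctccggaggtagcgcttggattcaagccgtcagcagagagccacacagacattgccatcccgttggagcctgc
Grhpr: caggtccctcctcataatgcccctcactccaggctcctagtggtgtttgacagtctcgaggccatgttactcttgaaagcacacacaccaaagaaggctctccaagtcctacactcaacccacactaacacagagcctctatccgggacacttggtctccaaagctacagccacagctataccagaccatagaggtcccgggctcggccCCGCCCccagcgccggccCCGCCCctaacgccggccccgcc
The windows had a GC content of 62.4%, 57.2% and 60.4%. The Mpv17l2 window held 4 matches to CCAAT and 1 to the GC box, the Grhpr window held 2 to the GC box, and the Rgs8 window held none of the motifs searched. Of the 15 genes that rose, 14 had a RefSeq window. The GC box was in 7 of these (50%) and in 32.9% of all 27025 windows. All windows include those of genes not tested here, and the shares among tested genes alone were not computed. CCAAT was in 4 (28.6%) against 34.5% of all, and the TATA box TATAAA was in 3 (21.4%) against 13%. The ETS site CCGGAAG was in 2 (14.3%) against 7.05%, and the NRF1 core GCGCATGC in 1 (7.14%) against 2.32%. Both strands were searched, each motif was counted whether or not it overlapped another, and a match describes the letters only.

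Apoo and Mrpl22 encode other mitochondrial proteins. Apoo, a subunit of the complex that shapes the inner membrane's cristae (chromosome X, 94367117 to 94417093), was listed at 44.3, 29.6, 53.2 and 10.3 TPM with DAV132. Without it, Apoo was listed at 9.90, 0, 1.43, 0 and 0 TPM. The groups met within 1 TPM, at T028 and T983. The change of 3.98 ± 0.66 was the highest among the 14 genes with a value above 0 in both groups (limma, adjusted p = 0.0157). Mrpl22, a protein of the large mitochondrial ribosomal subunit (chromosome 11, 58171661 to 58179565), was listed at 36.1, 63.0, 28.99 and 15.0 TPM with DAV132. It was listed at 0.412, 2.62, 2.09, 1.81 and 18.5 TPM without it. T991 lay above T028, so the groups overlapped by 1 library. Mrpl22 changed by 3.08 ± 0.60 (limma, adjusted p = 0.0399). The 60 tested genes of oxidative phosphorylation had a median change of 0.14 and none of them passed.

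Among genes of metabolism and transport, Btd, which frees biotin for reuse (chromosome 14, 31641028 to 31668579), was listed at 11.4, 3.94, 7.77 and 5.87 TPM with DAV132. It was at 0.925, 0.502, 0.372, 0 and 0 TPM without it. Its change was 2.56 ± 0.45 (limma, adjusted p = 0.0191) and the groups were apart. Slc10a1, the bile acid importer best known from hepatocytes (chromosome 12, 80953183 to 80968705), was listed at 1.43, 3.65, 5.16 and 5.05 TPM with DAV132. The CZA libraries were listed at 0 except T986, at 0.623 TPM. All 9 values were low, and the groups did not overlap. Its change was 2.04 ± 0.36 (limma, adjusted p = 0.0191). Tstd2, named for a domain like that of thiosulfate sulfurtransferase (chromosome 4, 46114746 to 46138694), was listed at 10.1, 4.87, 8.09 and 17.6 TPM with DAV132. It was listed at 0 in all 5 CZA libraries, so no fold is given. The limma adjusted p was 0.0165. Cnep1r1, the partner of a nuclear envelope phosphatase that acts on lipid synthesis (chromosome 8, 88118769 to 88135110), was listed at 27.7, 40.5, 14.2 and 30.3 TPM with DAV132. It was at 6.79, 5.59, 0.546, 0.230 and 8.50 TPM without it. The CZA values formed a low pair, T986 and T987, and 3 higher ones, all below T027. The change was 2.81 ± 0.55 (limma, adjusted p = 0.0406).

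Genes with roles in the nucleus and in protein folding followed. Med7, a subunit of the Mediator complex that links transcription factors to RNA polymerase II (chromosome 11, 46436925 to 46442721), was listed at 45.7, 39.7, 42.3 and 31.5 TPM with DAV132. It was at 0.0997, 33.9, 0.185, 1.32 and 1.95 TPM without it. The 4 CZA+DAV132 libraries were close to each other, while T985 alone of the CZA libraries reached their range. Med7 changed by 3.68 ± 0.71 (limma, adjusted p = 0.0399). Topors, a ubiquitin and SUMO ligase (chromosome 4, 40259601 to 40269850), was listed at 16.5, 19.1, 14.9 and 22.2 TPM with DAV132. It was at 5.86, 4.96, 1.16, 0.462 and 0.845 TPM without it, and the groups were apart. Its change was 2.67 ± 0.49 (limma, adjusted p = 0.0328). Tonsl, which helps to repair stalled replication forks (chromosome 15, 76626002 to 76639958), was listed at 17.3, 14.8, 59.8 and 43.7 TPM with DAV132. It was at 3.97, 2.43, 3.54, 12.4 and 2.75 TPM without it, with T987 nearest to the other group. Tonsl changed by 2.51 ± 0.48 (limma, adjusted p = 0.0399). Dnajc4, a J-domain protein of the family that assists HSP70 chaperones (chromosome 19, 6987911 to 6992572), was listed at 26.6, 7.498, 30.03 and 3.48 TPM with DAV132. In the CZA libraries it was listed at 0 except in T986, at 0.286 TPM, so the groups were apart. Its change was 3.68 ± 0.70 (limma, adjusted p = 0.0399).

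The remaining pair were Wdr70, a WD-repeat protein, and D030056L22Rik, a protein-coding gene known by its cDNA clone. Wdr70 (chromosome 15, 7873055 to 8099209) was listed at 14.0, 7.94, 7.04 and 9.78 TPM with DAV132. It was at 0.336, 0.312, 0.0943, 2.23 and 0.730 TPM without it. D030056L22Rik (chromosome 19, 18713193 to 18718428) was listed at 34.04, 28.5, 14.9 and 22.1 TPM with DAV132. In the CZA libraries D030056L22Rik was at 3.20, 6.27, 1.80, 0 and 1.82 TPM. Neither gene had overlapping groups. Wdr70 changed by 2.69 ± 0.47 (limma, adjusted p = 0.0191) and D030056L22Rik by 3.05 ± 0.50 (limma, adjusted p = 0.0157).

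**Figure D1:**
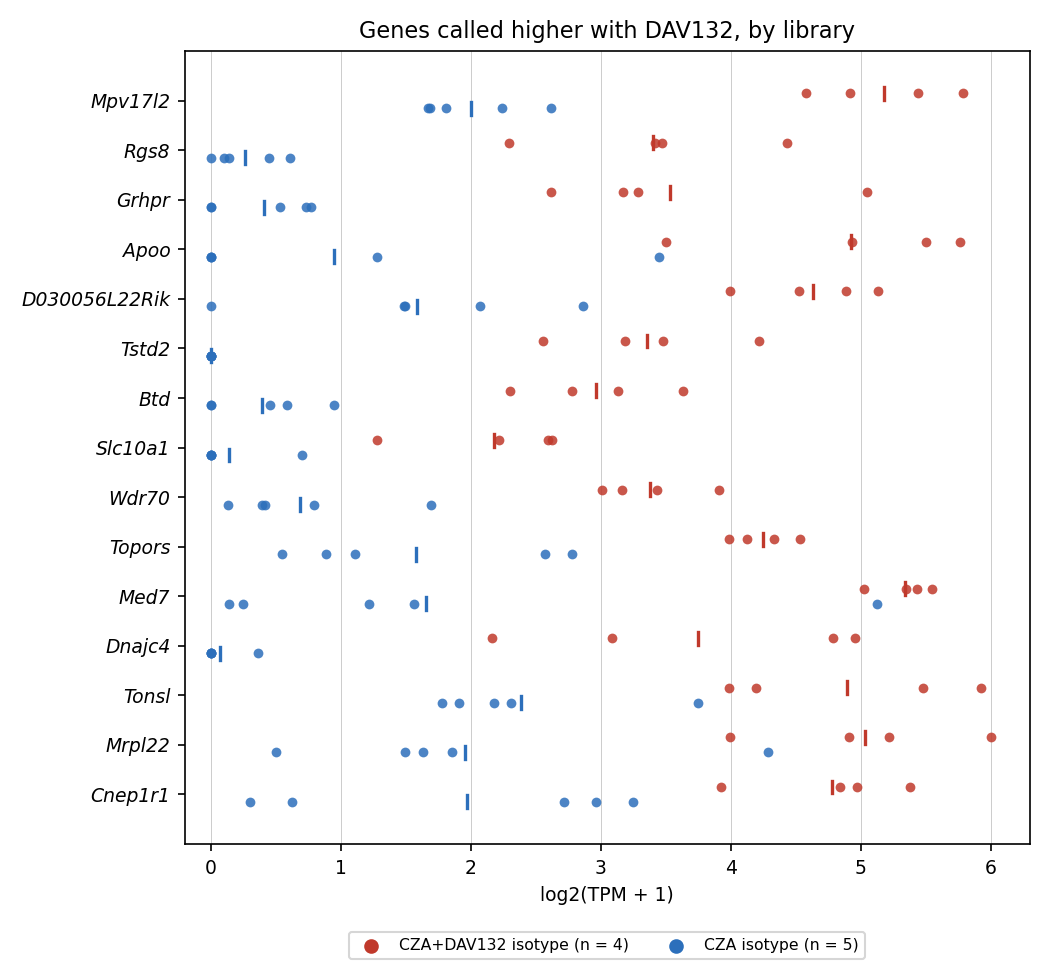
Expression of the 15 genes that passed in each isotype library. The x axis is log2(TPM + 1), each point is a library (CZA+DAV132 red, n = 4; CZA blue, n = 5) and each bar a group mean. The groups are apart for 13 genes and overlap for Med7 and Mrpl22, and most CZA points lie below 3.

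In 13 of the 15 genes every CZA+DAV132 library was above every CZA library, a separation that 1.85% of all genes tested showed in this direction and 0.39% in the other. The genes were called on these same values, so the separation is a description of them. Averaged over the 19 libraries labelled bulk tumour, 13 of the 15 were under 20 TPM. By level, 2 of 4626 genes under 5 TPM passed, 11 of 4286 between 5 and 20 TPM, 2 of 3319 between 20 and 100 TPM, and 0 of 1095 at 100 TPM or more. Leaving out 1 isotype library at a time ended the call of Cnep1r1 and Med7 in 6 of 9 fits, of Mrpl22, Tonsl and Topors in 5, of Dnajc4 in 4, of Apoo, Slc10a1 and Wdr70 in 3, and of Btd, D030056L22Rik and Tstd2 in 2. The adjusted p-values of these lost calls ran from 0.0504 to 0.132 (limma), and the library left out was T022, T024, T027, T028, T986 or T987. The median change in the classes by level was 0.19, 0.32, 0.17 and 0.12.

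The number of genes listed at 1 TPM or more also differed between the groups. It ran from 10429 to 11810 (median 11397) in the CZA+DAV132 isotype libraries and from 9333 to 10542 (median 10134) in the CZA isotype libraries. The ranges overlapped only through T027, the lowest with DAV132, and T985, the highest without it. The difference in means was 1253 genes (exact two-sided permutation test, n = 4 and 5, p = 0.0159, and 0.0795 when adjusted over 5 library measures; the smallest possible p is 0.00794). Under anti-PD-1 the number ran from 10638 to 12212 in CZA libraries and from 11345 to 12179 in CZA+DAV132 libraries, so every CZA isotype library was below all 10 of them. When this number entered the fit as a covariate, 0 genes passed in either direction, with 428 higher at an unadjusted p under 0.05, and the median change became −0.06. The log2 differences of the called genes stayed above 0 in that fit, at 3.37 for Mpv17l2 (limma, adjusted p = 0.125), 3.78 for Grhpr (0.125), 3.20 for Rgs8 (0.185) and 1.48 for Topors (0.600), the lowest of the 15.

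**Figure D2:**
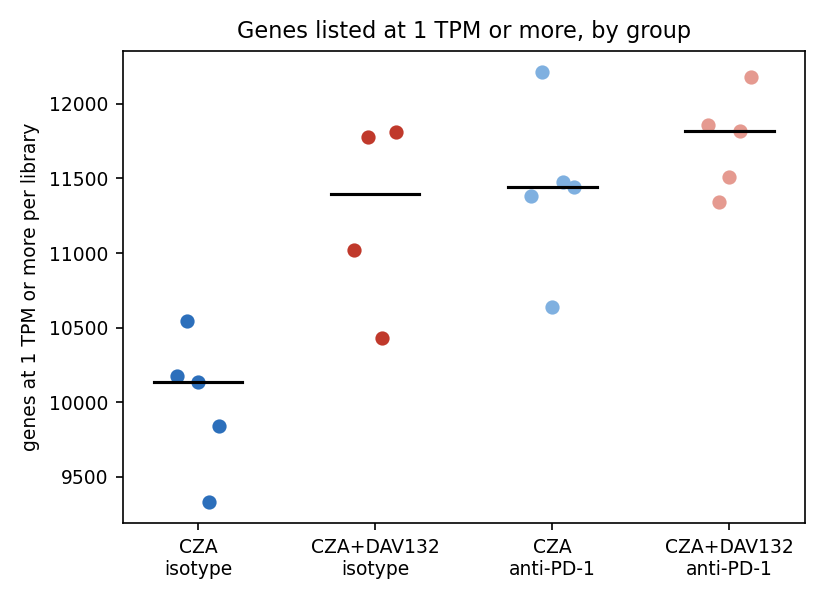
Number of genes listed at 1 TPM or more in each library labelled bulk tumour. The y axis counts genes and does not start at 0, points are libraries and bars group medians. The 5 CZA isotype libraries, at 9333 to 10542, lie below all of the anti-PD-1 libraries, which start at 10638.

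Other library measures gave no difference at an unadjusted exact permutation p under 0.05. Repeat entries, gene models made mostly of satellite or simple repeats, took 0.402% ± 0.0471 (SD, n = 4) of TPM with DAV132 and 3.10% ± 5.85 (n = 5) without it (exact permutation p = 0.571). T985 alone had 13.6%. Mitochondrial transcripts took 6.34% ± 0.50 and 5.83% ± 0.33 (exact permutation p = 0.103), and ribosomal protein transcripts 13.3% ± 1.88 and 12.3% ± 1.09 (exact permutation p = 0.333). Actb, the cytoplasmic actin gene, took 12.7% ± 3.19 and 12.8% ± 2.19 (exact permutation p = 0.937). Leaving out T985, the library rich in repeats, brought the number of genes that rose to 66 and the number that fell to 7, with all 15 among the 66.

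No gene passed in the lower direction with all libraries in the fit. The 10 with the smallest p and a mean of at least 5 TPM had limma adjusted p-values from 0.0784 to 0.162. Cenpj, which builds centrioles, had the smallest. Its TPM was 3.36, 3.86, 0.661 and 2.96 with DAV132 and 50.5, 11.8, 8.54, 40.5 and 33.8 without it. The groups did not overlap, and the change was −2.84 ± 0.64 (limma, adjusted p = 0.0784). Poldip2, a partner of DNA polymerase delta, was at 12.2, 21.9, 13.0 and 14.7 TPM with DAV132 and at 35.1, 51.9, 46.6, 32.5 and 55.1 TPM without it. Its groups were apart as well (−1.46 ± 0.34; limma, adjusted p = 0.0827), and under median-ratio scaling it passed, at −1.61 with an adjusted p of 0.0224. Lage3, a subunit of a tRNA-modifying complex, had a change of −2.93 ± 0.69 (limma, adjusted p = 0.0838) and Daxx, a histone chaperone, −1.87 ± 0.46 (limma, adjusted p = 0.106). Lin37, a subunit of a cell cycle repressor complex, had a log2 difference of −2.68 and Tut1, which adds uridines to U6 RNA, of −2.80, neither passing. Uqcrc1, a core subunit of respiratory complex III, had −2.13, the NK receptor Klra6 −1.81 and the RNA-binding protein gene Rbm12 −2.04. Lrp2bp was listed at 0 in all 4 CZA+DAV132 libraries and in T985, and at between 7.23 and 20.6 TPM in the other 4 CZA libraries. Without T985, Cenpj (−3.08, adjusted p = 0.0404), Lin37 (−3.05, 0.0473), Rbm12 (−2.46, 0.0404) and Lrp2bp (0.00971) passed, and without T986 Cenpj did (−3.19, 0.0405). T985 held the lowest CZA value of Lin37, Rbm12 and Lrp2bp, and T986 that of Cenpj, so leaving these out widened the difference.

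**Figure D3:**
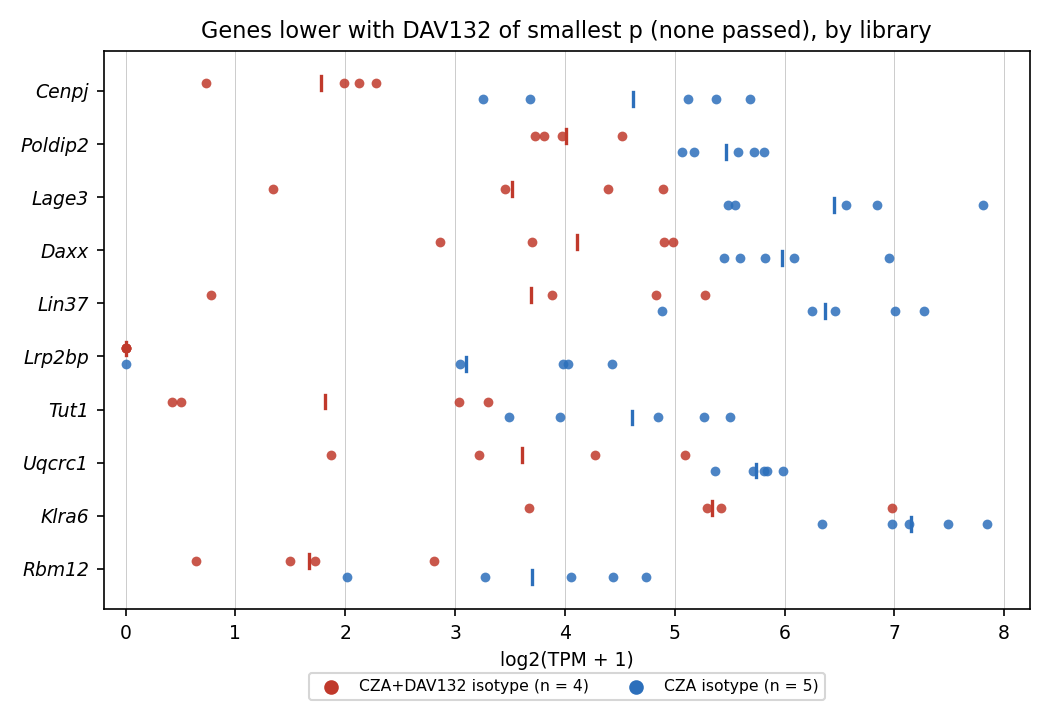
Expression of the 10 genes of smallest p in the lower direction, none of which passed. The x axis is log2(TPM + 1), each point is an isotype library (CZA+DAV132 red, n = 4; CZA blue, n = 5) and each bar a group mean. Lrp2bp is at 0 in every CZA+DAV132 library and in 1 CZA library.

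Under anti-PD-1, none of the 15 genes passed for DAV132 (limma), and the difference between the antibodies was tested by the interaction. The interaction, the DAV132 change under isotype minus that under anti-PD-1, passed for 6 genes in the higher direction (0.045% of 13326) and 0 in the lower, and the median over all genes was 0.42. At an unadjusted p under 0.05 there were 1215 higher (9.12%) and 160 lower (1.2%). Mpv17l2 had an interaction of 3.81 ± 0.61 (limma, adjusted p = 0.0236). Under anti-PD-1 its mean was 12.8 ± 8.77 TPM (SD, n = 5) with DAV132 and 18.8 ± 7.04 TPM without it. Rgs8 had an interaction of 3.97 ± 0.63 (limma, adjusted p = 0.0236), with 6.497 ± 2.19 TPM with DAV132 and 12.3 ± 4.25 TPM without it under anti-PD-1. D030056L22Rik had 4.14 ± 0.69 (limma, adjusted p = 0.0281) and Grhpr 3.85 ± 0.69 (limma, adjusted p = 0.0462). Tstd2 passed too (limma, adjusted p = 0.0459). In each of these the CZA isotype group was the low one of the 4. Rab4a, a small GTPase of endosomal recycling, passed the interaction (4.48 ± 0.82; limma, adjusted p = 0.0462) but not the isotype contrast (2.80 ± 0.60; adjusted p = 0.0743). Its TPM was 17.0, 9.52, 16.8 and 3.55 with DAV132 under isotype, and 0.536, 3.99, 0, 0.370 and 0 in CZA isotype libraries. The anti-PD-1 means of Rab4a were 3.36 ± 2.49 TPM with DAV132 and 11.8 ± 4.38 TPM without it.

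The interaction passed for 5 of the 15 genes, which were called on one of the contrasts it is made of. Under anti-PD-1, DAV132 gave a change above 0 in 3 of the 15: Cnep1r1 (0.28), Topors (0.29) and Wdr70 (0.31), none of which passed. The median change of all 13326 genes in that contrast was −0.19, so most genes were below 0 there. The shares of all genes above 0 or passing in it were not counted, so the 3 of 15 is a description only. In 14 of the 15, the highest CZA isotype library was below the median of the CZA anti-PD-1 libraries. The 15 were called on these same CZA isotype values, and the share of all genes with this pattern was not counted. The interaction rests on few libraries. T026, a CZA+DAV132 anti-PD-1 library, had 49.7% of its TPM in repeat entries, and the interaction passed for 0 genes without it and for 1 with repeat entries removed and TPM rescaled. It also passed for 0 genes without T021, T022, T023, T024, T027, T982, T984, T986 or T990, each left out alone, and for 2 without T989, 14 without T983 and 18 without T985. Under median-ratio scaling or quantile normalization it passed for 0.

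**Figure D4:**
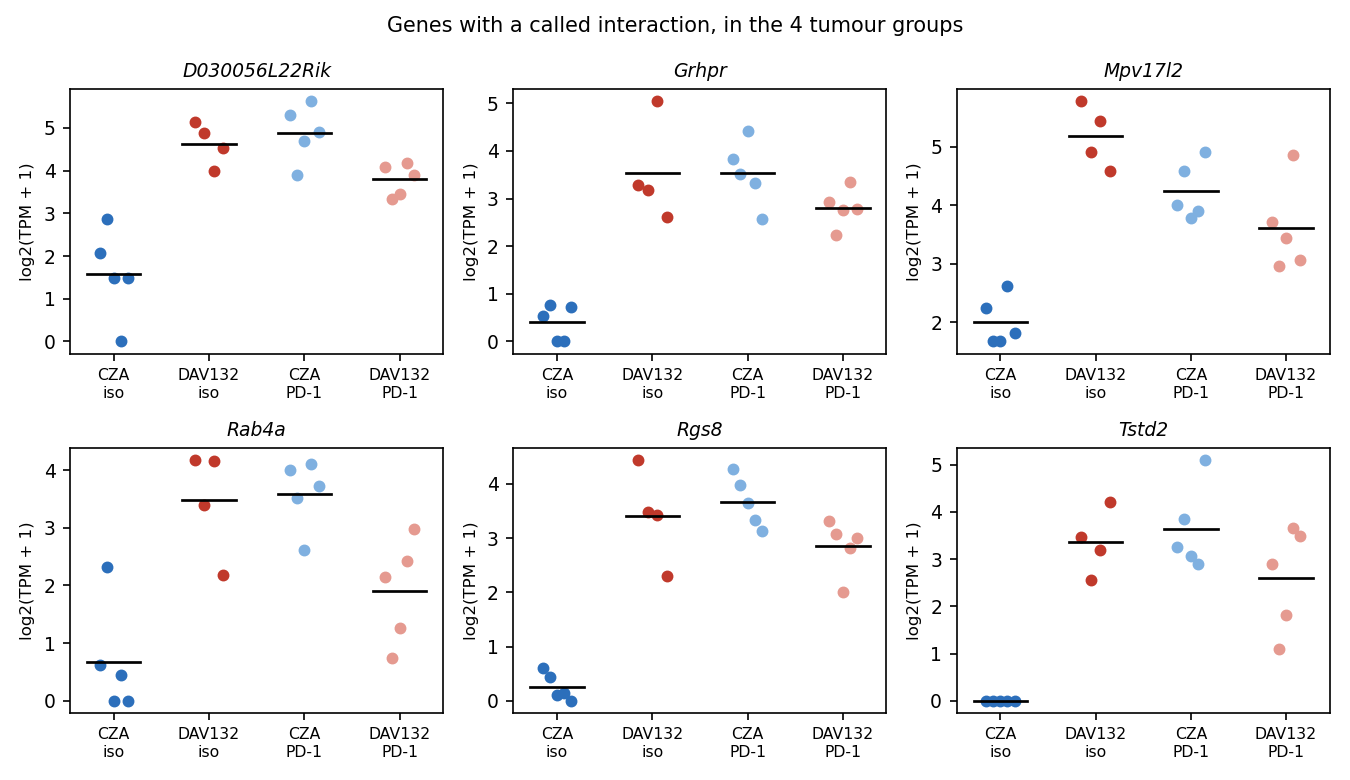
The 6 genes whose interaction passed, in all 4 groups of libraries labelled bulk tumour. The y axis is log2(TPM + 1), points are libraries (n = 5, and 4 for CZA+DAV132 isotype) and bars are means; iso is isotype and PD-1 is anti-PD-1. The CZA isotype group has the lowest mean in each panel.

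In sorted CD8+ T cells from the repeat experiment, the same contrast under isotype gave 0 genes in either direction among 12942 tested (limma, n = 5 and 5), with 87 higher (0.672%) and 233 lower (1.8%) at an unadjusted p under 0.05. Of the 15 genes, 14 were tested there. Their changes were above 0 in 10, and none had an unadjusted p under 0.05. Mpv17l2 averaged 46.4 ± 6.68 TPM (SD) with DAV132 and 44.3 ± 7.74 TPM without it, a change of 0.07. Mrpl22 averaged 84.2 ± 8.33 and 79.9 ± 18.8 TPM, a change of 0.11, and Grhpr 16.9 ± 3.84 and 21.9 ± 6.495 TPM, a change of −0.33. Slc10a1 was too low to be tested. The tables of the experiments may have been scaled separately, so levels are set side by side without a test of the difference.

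Gene lists of immune and metabolic function had 0 members that passed in either direction, against 15 of all 13326 genes. They are described by the median change of their tested members beside the 0.21 of all genes. Among T cell genes, the T cell receptor and co-receptor list had a median of 0.22, with 16 of 19 genes above 0. Zap70, the kinase that carries the receptor signal, was at 158, 62.6, 92.2 and 76.8 TPM with DAV132 and at 54.1, 26.2, 58.4, 38.9 and 63.3 TPM without it. T024 lay inside the CZA range, and the change was 0.98 ± 0.40 (limma, adjusted p = 0.369). Cd3g, a chain of the receptor complex, had a change of 0.52 (adjusted p = 0.446), and Cd8a 0.21 (0.832). The 19 cytotoxic effector genes had a median of 0.08. It ran from −0.174 to 0.215 with a library left out, and was −0.328 with the number of detected genes as a covariate. Gzmb, a granule protease, had a log2 difference of 0.01, Prf1, which forms pores in target cells, of −0.64 and the cytokine gene Ifng of −0.04, all with limma adjusted p-values above 0.7.

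Inhibitory receptor and exhaustion genes had a median of 0.29, which ran from 0.0812 to 0.377 with a library left out. Cd200r1, an inhibitory receptor of the immunoglobulin family, came closest to passing. Its TPM was 29.98, 25.9, 11.2 and 10.9 with DAV132 and 13.7, 0, 0.543, 0 and 0 without it. T983 was the CZA library within the other group's range. The change of Cd200r1 was 3.32 ± 0.74 (limma, adjusted p = 0.0743), and without T983 it was 4.07 with an adjusted p of 0.00458. That fit leaves out the CZA library with the highest value, and Cd200r1 passed in no other left-out fit. Pdcd1, which encodes PD-1, had a log2 difference of 0.38 (adjusted p = 0.781), Havcr2 (TIM-3) of 0.68 (0.73), and Lag3 of −0.02 (0.995). Tox, a regulator of exhaustion, had a log2 difference of −0.80 without passing. Eomes, a T-box factor of effector and memory cells, had a log2 difference of −1.34 ± 0.42 (limma, adjusted p = 0.217). In the regulatory T cell list of 8 tested genes, with a median of 0.12, Ikzf4 (Eos) was at 11.0, 12.8, 11.3 and 9.82 TPM with DAV132. It was at 7.37, 1.43, 1.28, 1.303 and 0.811 TPM without it. These groups did not overlap (2.09 ± 0.50; limma, adjusted p = 0.0908), and without T983 the adjusted p was 0.022. T983 again held the highest CZA value, and Ikzf4 passed in no other left-out fit. Foxp3, the defining factor of regulatory T cells, was at or under 1.52 TPM in all 9 libraries. The regulatory T cell median ran from 0.0456 to 0.424 with a library left out and was −0.164 under quantile normalization. The stem-like and memory list had a median of −0.03, with Tcf7 at −0.03. Its median ran from −0.105 to 0.113 with a library left out and was −0.186 under median-ratio scaling.

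Interferon lists lay below the median of all genes. The 35 type I interferon response genes had a median of −0.28, with 15 above 0. At an unadjusted p under 0.05, 1 (2.86%) was higher and 3 (8.57%) were lower, against 9.03% and 1.88% of all genes. Herc6, a ubiquitin ligase induced by interferon, was at 8.99, 5.61, 0.500 and 8.48 TPM with DAV132 and at 13.8, 20.5, 10.1, 19.4 and 21.1 TPM without it. The groups did not overlap, and the change was −1.65 ± 0.57 (limma, adjusted p = 0.279). Oasl2 had a log2 difference of −2.04 (adjusted p = 0.33) and Ifit2, which binds viral RNA, of 2.18 (0.171). The 22 interferon gamma response genes had a median of −0.20. Gbp2, a guanylate-binding protein, had a log2 difference of −1.004 (adjusted p = 0.401), Cxcl9 of −0.91 (0.707), Cxcl10 of −1.38 (0.561) and Cd274 (PD-L1) of −0.63 (0.584). The type I median differed from that of all genes by −0.49, and by −0.08 with the number of detected genes as a covariate. The interferon gamma median differed from that of all genes by −0.40, and by −0.12 under quantile normalization. MHC class I and immunoproteasome genes had a median of 0.05, with Tap2, a subunit of the peptide transporter, at 0.98 (adjusted p = 0.298). MHC class II genes had a median of 0.21 and went both ways, with H2-DMa at 2.20 (adjusted p = 0.205) and H2-Ab1 at −1.51 (0.344). The class II median was −0.40 with the number of detected genes as a covariate and 0.72 without T022.

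Cholesterol synthesis had the highest median among the function lists, at 0.70, with 19 of 23 genes above 0 and 4 (17.4%) higher at an unadjusted p under 0.05, against 9.03% of all genes. Sc5d, which makes a late sterol intermediate, was at 50.4, 27.2, 35.7 and 29.8 TPM with DAV132. It was at 12.8, 19.6, 8.00, 22.5 and 21.3 TPM without it. The groups did not overlap, and the change was 1.09 ± 0.42 (limma, adjusted p = 0.329). Lss, which closes the sterol rings, had a log2 difference of 1.75 ± 0.50 (limma, adjusted p = 0.182). The list's median ran from 0.42 to 0.70 under the scalings and from 0.55 to 0.93 when each library was left out. The 25 immediate early and heat shock genes had a median of 0.54, with 21 above 0. It was 0.19 without T028, level with the median of all genes in that fit, and 0.06, with 13 above 0, with the number of detected genes as a covariate. Btg2, an early response gene that slows division, was at 67.3, 60.0, 110 and 91.6 TPM with DAV132, all above the CZA range of 42.7 to 53.9 TPM (0.73 ± 0.31; limma, adjusted p = 0.391).

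The 40 cell cycle and DNA replication genes had a median of 0.49, with 34 above 0 and 3 (7.5%) higher at an unadjusted p under 0.05, a share under that of all genes. Ube2c, which marks mitotic proteins for destruction, was at 75.1, 114, 146 and 124 TPM with DAV132. It was at 47.2, 74.9, 56.9, 15.4 and 37.3 TPM without it. T022 lay just above T985, so the groups touched without overlap (1.42 ± 0.41; limma, adjusted p = 0.182). Mki67, a marker of dividing cells, had a log2 difference of 0.45 ± 0.35 (limma, adjusted p = 0.694). The list's median was between −0.06 and 0.49 under the scalings, the lowest of them with the number of detected genes as a covariate, and 0.31 without T987. Unfolded protein response and ATF4 genes had a median of 0.40. Creld2, a chaperone of the endoplasmic reticulum, was at 101, 47.3, 45.9 and 58.3 TPM with DAV132 and at 24.5, 27.97, 23.7, 9.91 and 35.8 TPM without it, which did not overlap (1.37 ± 0.37; limma, adjusted p = 0.143). The median of this list was −0.03 with the same covariate and 0.13, with 13 of 21 genes above 0, without T987. Oxidative phosphorylation (0.14), glycolysis (0.07), actin cytoskeleton (0.19), apoptosis (0.24), hypoxia (0.28), NF-kB (0.18), T cell activation (0.13), chemokine ligand (0.09) and gut homing (0.12) lists had medians within 0.15 of that of all genes. Each of these lists lay further than that from all genes in some other scaling or left-out fit. The chemokine ligand median was −0.64 with the same covariate, and the gut homing median was −0.16 without T983. Madcam1, the gut homing addressin, was listed at 0 in all 9 libraries.

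**Figure D5:**
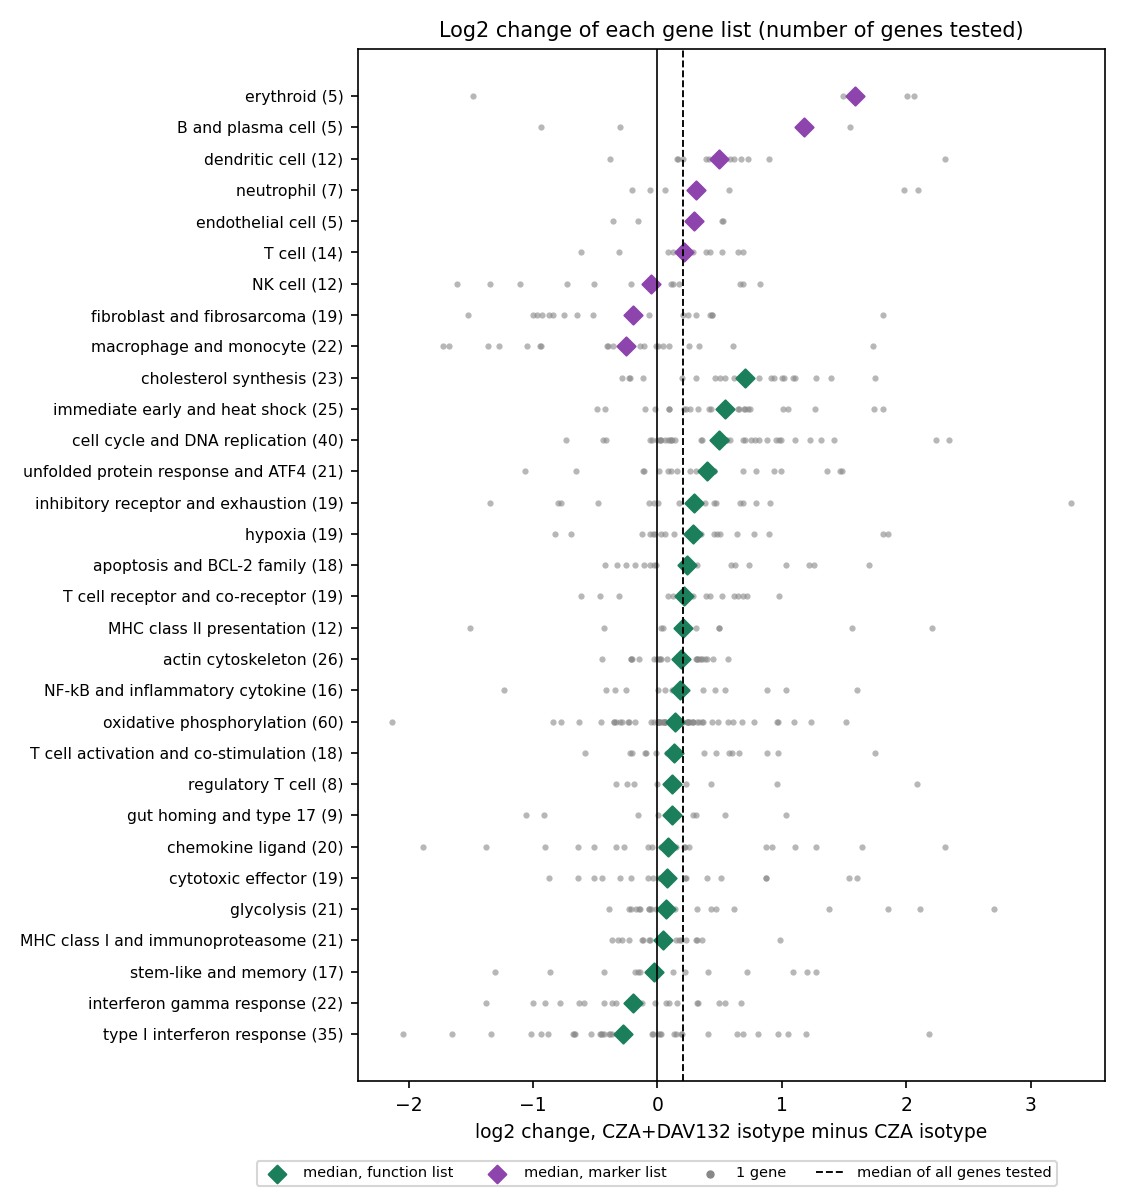
Log2 change with DAV132 under isotype of each gene in the lists with at least 5 tested genes. The x axis is the log2 change, grey points are genes, diamonds are list medians (green for function, purple for markers of other cell types and T cells) and the dashed line is the median of all genes, 0.21. Cholesterol synthesis has the highest median of the function lists, 0.70, and the type I interferon response the lowest, −0.28.

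Markers of other cell types were measured beside these lists, and none of their genes passed. The 14 T cell markers had a median change of 0.21, with 12 above 0. The 22 macrophage and monocyte markers had a median change of −0.25, with 7 above 0. They summed to 1310 to 1880 TPM with DAV132 and 1310 to 2460 TPM without it. Their median was 0.07 without T022, −0.65 without T987 and −1.25, with 1 of 22 above 0, with the number of detected genes as a covariate. The lipid carrier Apoe had a log2 difference of −1.68 (limma, adjusted p = 0.446) and Msr1, a scavenger receptor, of −1.72 (0.362). Cd68 went the other way, with a log2 difference of 1.73 (limma, adjusted p = 0.51). The fibroblast list had a median of −0.20, which was 0.39 without T986, 0.18 without T022, −0.80 without T987 and −0.59 with the covariate. The 12 tested dendritic cell markers had a median of 0.50, with 11 above 0 and sums of 325 to 360 TPM against 261 to 388 TPM. That median was 0.24 without T024 and 0.10, with 7 above 0, under quantile normalization. Ccl17, a chemokine of dendritic cells, was listed at 0 in all CZA libraries and at 0, 2.12, 23.8 and 6.78 TPM with DAV132. Endothelial markers had a median of 0.29 (−0.14 under quantile normalization and 0.04 without T024) and summed to 818 to 1440 TPM and 570 to 1060 TPM, nearly all from Pecam1, which leukocytes also express, and Tek, Plvap and Cldn5 were at 0 in all 9. B and plasma cell markers had a median of 1.18 from 5 tested genes, 3 of them above 0. They summed to 25.3 to 92.2 TPM and 16.1 to 138 TPM, with Jchain and Mzb1 at 0 in all 9. Pax5, the one of smallest p among the 5, was lower with DAV132, with a log2 difference of −0.94 (limma, adjusted p = 0.452). The B and plasma cell median was −0.19 with the covariate, and ran from 0.34 without T024 to 2.09 without T985. Erythroid markers had the highest median, 1.59, from 5 tested genes, and summed to 23.4 to 87.5 TPM with DAV132 and 0.934 to 37.98 TPM without it. Of them, 4 had an unadjusted p under 0.05, and the haemoglobin gene Hba-a2 had a log2 difference of 2.00 ± 0.78 (limma, adjusted p = 0.339). NK markers had a median of −0.05 with Ncr1 at 0 in all 9, and this median was −0.76 with the covariate and 0.29 without T027. Neutrophil markers had a median of 0.31 and summed to 18.9 to 57.4 TPM and 9.70 to 26.3 TPM. Mast cell, pericyte, keratinocyte, adipocyte and skeletal muscle lists had fewer than 5 tested genes each, and Krt14 was at 0 in all 9. The part of these cell types in the 15 genes and in the lists was not tested.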

How the data were processed

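RNA was measured in 9 isotype libraries and 10 anti-PD-1 libraries labelled bulk tumour, and in 20 libraries of sorted CD8+ T cells. The authors deposited TPM in 2 tables. Kallisto 0.45 and GRCm38 are named in the submitters' processing notes, and the annotation is not given in the sources used here. Per the labels' protocols, RNA was depleted of ribosomal RNA and made into strand-specific libraries. Each table held 28023 gene symbols, of which 27787 matched GENCODE M21 by symbol, the source of coordinates. Kallisto shares reads among near-identical transcripts, so genes with close copies are uncertain. Promoter windows and coordinates of sequences are from RefSeq.

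Groups came from sample titles. TPM were put on the log2(TPM + 1) scale, where the changes of low genes are understated, and genes that reached 1 TPM in 4 libraries or more were tested with limma 3.58.1 in R 4.3.3: a mean for each of the 4 groups, empirical Bayes moderation, a mean-variance trend, two-sided p-values and Benjamini-Hochberg adjustment over all genes of a set, called under 0.05. Library measures were compared by exact permutation over all 126 splits. The method was also run on simulated data with normal noise and the same spread in every group. Those data held no values fixed at 0 and no shift common to all genes. The run therefore does not bear on how such features affect the calls here. The genes named are the 10 largest rises and falls among called genes with a mean of at least 5 TPM over the isotype libraries, filled to 10 with the smallest p and given as not passing, and the 3 of smallest p in each list with at least 5 tested genes, with 20 genes in every case, described in part; predicted genes, pseudogenes, histone, antigen receptor and mitochondrial genes and small RNAs stay out of the first part. D030056L22Rik, Tstd2, Wdr70, Btd, Slc10a1 and Rab4a lie outside it and were named after their values were seen. The 22 function and 14 marker lists (674 symbols), the groups and these rules were chosen with earlier results of these data known. Repeat entries are 15 gene models with at least 50% of their transcript in satellite or simple repeats. Satellite repeats were matched by words of 16 bases, and simple repeats were dinucleotide runs of at least 32 bases.

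Alternatives were a fit of the groups compared alone, a pseudocount of 0.1, no filter, a mean of at least 5 TPM, median-ratio scaling, TPM rescaled without mitochondrial and small RNA genes, array weights and each library left out. Quantile normalization, the number of genes at 1 TPM as a covariate, and TPM rescaled without repeat entries were chosen after seeing the data, as was the number of genes at 1 TPM as a measure. A result that names a withheld gene is not reported here.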

Additional observations from a re-analysis of the deposited data

Results flagged for a closer look

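In 196 groups of values checked, 1 library stood apart from the others in 16. Chance alone gives this in about 1 of 20 groups where values are normally distributed. Where all other libraries are at 0, any value above 0 is flagged, as for Dnajc4, Slc10a1 and Hba-a1 below. The 16 can therefore not be read against that rate. In the CZA+DAV132 isotype group the low library was T022 for Cxcl10 (2.44 TPM) and T027 for Birc3 (12.5 TPM) and Arpc1b (362 TPM). In the CZA isotype group the high library was T985 for Med7 (33.9 TPM), Hba-a1 (0.85 TPM), Rab4a (3.99 TPM) and the share of TPM in repeat entries (13.6%), and the low one was T985 for Nfkb2 (4.75 TPM). It was T986 that was high for Dnajc4 (0.286 TPM), Slc10a1 (0.623 TPM) and Foxp3 (0.983 TPM). T983 was high for Pdcd1 (166 TPM), Cd200r1 (13.7 TPM) and Ikzf4 (7.37 TPM). T987 was high for Tonsl (12.4 TPM) and T991 for Ankrd37 (30.9 TPM).

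The DAV132 change differed between isotype and anti-PD-1 by the interaction test (limma) for Mpv17l2 (adjusted p = 0.0236), Rgs8 (0.0236), D030056L22Rik (0.0281), Tstd2 (0.0459), Grhpr (0.0462) and Rab4a (0.0462). Each was lowest in the CZA isotype group.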

How the results depend on the processing

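The 15 rises became 0 with only the groups compared, 0 with quantile normalization, 0 with the number of genes at 1 TPM as a covariate, 5 with array weights and 31 with a pseudocount of 0.1; with no filter, a mean of at least 5 TPM, median-ratio scaling, no mitochondrial and small RNA genes, or no repeat entries they were 11 to 15. Falls stayed at 0 except 1 under median-ratio scaling. With 1 library left out there were 5 to 66 rises and 0 to 7 falls: 7 without T022, 5 without T024, 9 without T027, 44 without T983, 66 without T985, 26 without T986 and 37 without T991. Calls were lost without T022 for 11 genes, T024 for 10, T027 for 9, T028 for 7, T987 for 5 and T986 for 4, at adjusted p of 0.0504 to 0.132; none was lost without T983, T985 or T991, and no called gene changed sign. The interaction's 6 became 0 under median-ratio scaling, quantile normalization and the covariate, 1 without repeat entries, 3 with no filter and 3 with a mean of at least 5 TPM, and 0 to 18 with a library left out. The CD8 contrast gave 2 higher in the fit of its groups alone, median-ratio scaling, array weights, quantile normalization, the covariate and without repeat entries, 1 lower in median-ratio scaling, array weights and without repeat entries, and 0 to 1 lower with a library left out. The median of all genes was 0.21, and 0.09 with median-ratio scaling, −0.02 with quantile normalization, 0.02 with no filter and 0.34 with a pseudocount of 0.1. Signs changed only for genes far from passing: with median-ratio scaling Cd3e (−0.0695) and Gzmb (−0.146); with array weights Tcf7 (0.00584) and Gzmb (−0.159); with quantile normalization Cd4 (−0.408), Foxp3 (−0.0383), Lag3 (0.0397), Tcf7 (0.0369), Gzmb (−0.0252) and Actb (0.495); with the covariate Cd3e (−0.0897), Cd4 (−0.45), Foxp3 (−0.505), Lag3 (0.0652), Gzmb (−0.292) and Actb (0.118); and without repeat entries Gzmb (−0.0315). With a library left out the change ran from −0.0782 to 0.191 for Cd3e, −0.0838 to 0.607 for Cd4, −0.225 to 0.282 for Lag3, −0.189 to 0.222 for Tcf7, −0.279 to 0.215 for Ifng, −0.322 to 0.285 for Gzmb and −0.183 to 0.0759 for Actb. With a library left out, the difference in Actb share ran from −1.60 to 0.77 percentage points, in repeat share from −3.43 to −0.0856, in mitochondrial share from 0.35 to 0.74, in ribosomal protein share from 0.37 to 1.87 and in genes at 1 TPM from 1069 to 1530. The cause was not tested. No paired analysis was possible because the groups share no replicate numbers. TPM hold no depth, so the counting error of low values cannot be given.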
